A study of Mus musculus with 20 samples.

Results

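Iron transport genes of the distal colon (DC) are described here in mice fed resistant potato starch (RPS). The 8 genes were taken by symbol from the table of 26619 genes, and they cover iron export (Heph, Slc40a1), import (Slc11a2, Cybrd1, Tfrc), storage (Fth1, Ftl1) and iron sensing (Ireb2). Heph was chosen because its level was higher at higher RPS doses, so its dose values are given as a description and without a test. The other 7 genes were chosen by their role, but with earlier results of these data known. All 8 passed the filter on low counts, which kept 17893 genes.

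RNA was sequenced from a piece of colon close to the anal end of 20 C57BL/6 mice. After weaning all mice first received the Total Western Diet (TWD), a rodent diet modelled on what Americans typically eat. They then received the TWD with 0, 2, 5 or 10% RPS by weight in place of corn starch, with 5 mice per diet, so the 0% RPS mice are the controls and every mouse carried the TWD background. Groups follow the description label, and for 3 mice (RS10_717, RS10_725 and RS10_748) the treatment label gives another RPS level. Total counts lay between 18429493 and 34974230 per mouse and were highest in the 0% RPS mice, where the lowest was 31254832. Mouse RS10_721 (5% RPS) carried pancreas acinar markers at 6928 CPM (read counts scaled to library size, per megacount) in sum, against 379 to 950 CPM in the other mice. Cela1 alone made up most of the sum in these others, except in RS10_784, the mouse at 950 CPM. The score of these markers (mean log2 CPM) was 9.27 in RS10_721 and 6.03 in RS10_784 (10% RPS), and at most 1.77 in the other 18 mice, so both carried acinar RNA. All 11 epithelial and all 9 smooth muscle markers were detected, with summed levels of 12473 to 19436 CPM and 6167 to 13529 CPM.

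In epithelial cells, a reductase such as Cybrd1 turns ferric into ferrous iron, the transporter Slc11a2 (DMT1) carries it across the membrane, and Tfrc takes up iron bound to transferrin. Ferritin, built of the heavy chain Fth1 and the light chain Ftl1, stores iron. Slc40a1 (ferroportin) is the known cellular iron exporter, and the copper-dependent ferroxidase Heph (hephaestin) oxidises the iron that leaves through it. Cells adjust these genes partly through the iron regulatory proteins, of which Ireb2 encodes one. These proteins bind a hairpin in mRNA, the iron-responsive element (IRE), where binding in a 5′ UTR blocks translation and binding in a 3′ UTR protects the mRNA from decay.

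The IRE is shown because the iron regulatory proteins bind it, and some of the storage, export and import genes carry it. The transcripts of GENCODE vM39 (assembly GRCm39) were searched on the sense strand for an unpaired C, 5 bases, the loop CAGTG with any base but G after it, and 5 bases that pair back to the first 5, with at least 3 of 5 further pairs below the C. Each match of 27 bases is printed 5′ to 3′ as DNA with the loop in capitals.
Fth1, 5′ UTR, chr19:9960097-9960123, plus strand: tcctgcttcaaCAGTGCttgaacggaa
Ftl1, 5′ UTR, chr7:45109204-45109230, minus strand: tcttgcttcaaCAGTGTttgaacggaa
Slc40a1, 5′ UTR, chr1:45964626-45964652, minus strand: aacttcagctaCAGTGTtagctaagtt
Tfrc, 3′ UTR, chr16:32450038-32450064, plus strand: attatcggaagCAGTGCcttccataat
Tfrc, 3′ UTR, chr16:32450417-32450443, plus strand: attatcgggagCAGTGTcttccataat
Tfrc, 3′ UTR, chr16:32450482-32450508, plus strand: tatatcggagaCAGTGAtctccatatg
Tfrc, 3′ UTR, chr16:32450529-32450555, plus strand: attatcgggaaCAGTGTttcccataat
In the whole annotation, 12 of 20574 genes with a 5′ UTR (0.0583%) and 28 of 20891 genes with a 3′ UTR (0.134%) held such a match. Both ferritin chains and Slc40a1 held 1 match each in the 5′ UTR, and Tfrc held 4 in the 3′ UTR. No match was found in Heph, Slc11a2, Cybrd1 or Ireb2, which says only that this strict pattern is not in their UTRs. An IRE with a mismatch or an extra base among the 5 pairs next to the loop would be missed, so these genes are not shown to lack one. A match is a description of the sequence, and mRNA counts do not measure translation.

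Per kilobase of exon, the level of Fth1 was the highest of the 8 genes, at 286 ± 40.2 CPM per kb (SD, n = 20 mice), with a range of 213 to 375. Ftl1 followed at 54.6 ± 7.19 CPM per kb, then Slc40a1 at 23.1 ± 7.96 and Tfrc at 16.9 ± 3.63. Heph lay at 7.40 ± 1.43 CPM per kb, Ireb2 at 5.57 ± 0.436 and Slc11a2 at 4.77 ± 0.608. Cybrd1 was the lowest, at 0.596 ± 0.115 CPM per kb, with 57 to 153 reads per mouse. Fth1 and Cybrd1 were separated from their neighbours in every mouse. The ranges over mice of Ftl1 (47.4 to 76.0) and Slc40a1 (14.8 to 48.9) overlapped, but Ftl1 was above Slc40a1 in every mouse. Those of Heph (5.47 to 9.82), Ireb2 (4.83 to 6.33) and Slc11a2 (3.92 to 6.36) also overlapped, but Heph was above both in every mouse. Slc40a1 and Tfrc (10.2 to 23.2) changed order between mice, as did Ireb2 and Slc11a2. The order within each of these pairs is therefore not fixed by the levels. The length used was the union of all annotated exons, 12521 bases for Heph and 11071 for Slc11a2. The transcript marked as canonical is shorter, with a 5′ UTR, coding sequence and 3′ UTR of 584, 3471 and 1927 bases for Heph. For Slc11a2 these are 132, 1704 and 1189 bases. All orders given here hold for the union length and could differ with another length. Reads shared between Fth1, Ftl1 and their many processed copies could have been placed differently by the authors' counting, so the ferritin levels are uncertain in that respect.

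Heph (ENSMUSG00000031209, chrX:95498965-95621010) was higher at 5 and 10% RPS than in the controls. In the 0% RPS mice its level was 75.4, 81.5, 85.6, 82.5 and 68.5 CPM. At 2% RPS it was 77.0, 75.2, 83.1, 80.1 and 82.3 CPM, within the range of the controls. At 5% RPS it was 90.2, 109.9, 97.7, 120.8 and 79.2 CPM, so 4 of 5 mice lay above every control. At 10% RPS it was 101.6, 94.6, 122.0, 122.9 and 122.2 CPM, and all 5 mice lay above all 5 controls. The group means were 78.7 ± 6.82, 79.5 ± 3.40, 99.5 ± 16.3 and 112.7 ± 13.5 CPM (SD, n = 5). The log2 fold change against 0% RPS was 0.02 ± 0.10 (SE) at 2%, 0.34 ± 0.10 at 5% and 0.52 ± 0.10 at 10% RPS, the last a 1.43-fold higher level. With the treatment label the value at 10% RPS was 0.47, and without the 3 mice whose labels disagree it was 0.56. Without RS10_784 it was 0.49, and without RS10_721 the value at 5% RPS was 0.26. Since the gene was selected on these values, no p is given. Of all tested genes, 2.28% had 5 mice on 10% RPS that did not overlap the 5 controls, and none of the other 7 genes did. At 5% and 2% RPS, where 1.04% and 0.240% of all tested genes did not overlap, none of the 8 genes did. In whole tissue, a change in the share of a cell type and a change in RNA per cell cannot be told apart.

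**Figure D1:**
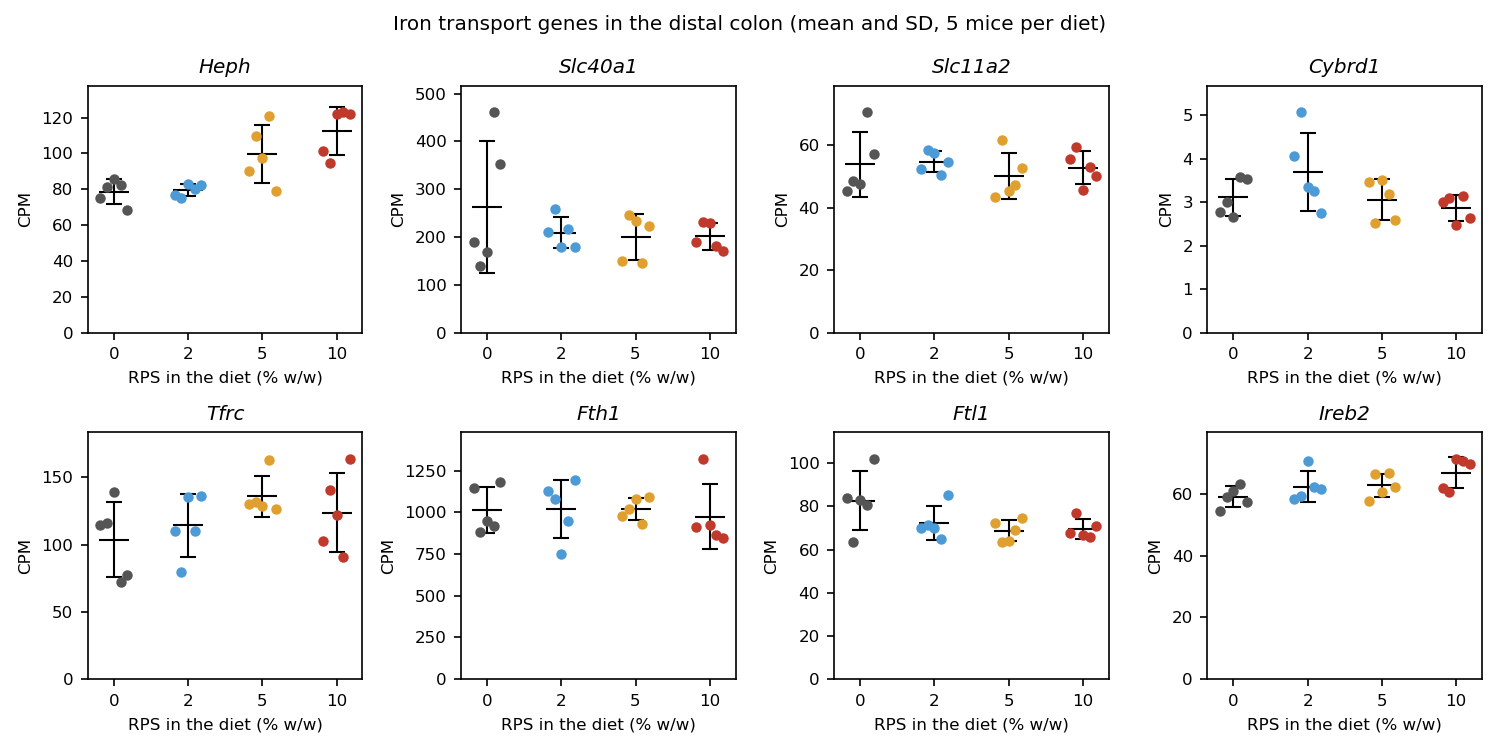
Level of each of the 8 genes in CPM (y axis from 0) by RPS in the diet (% w/w, x axis). Each point is a mouse, the long dash is the mean and the bar the SD of 5 mice. Heph at 10% RPS lies between 94.6 and 122.9 CPM, above all controls (68.5 to 85.6 CPM), whereas the groups of the other genes overlap.

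Slc40a1 (ENSMUSG00000025993, chr1:45947211-45965683), the exporter that Heph serves, did not pass the test at any dose. Its level in the 0% RPS mice was 189, 139, 170, 461 and 354 CPM. The last 2 of these controls, RS10_707 and RS10_708, were higher than every other mouse of the study, and the other 3 lay at 139 to 189 CPM. At 10% RPS the level was 190, 232, 230, 182 and 171 CPM, and the 2% and 5% RPS mice covered 179 to 259 and 146 to 247 CPM. The log2 fold change at 10% RPS was -0.38 ± 0.27 (SE; edgeR quasi-likelihood test, adjusted p = 0.527, 95% interval -0.95 to 0.18). Without mouse RS10_707 it was -0.08 and without RS10_708 it was -0.26, both uncalled.

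Of the import genes, none passed the test. Slc11a2 (ENSMUSG00000023030, chr15:100285776-100322953) was at 53.8 ± 10.3 CPM in the controls and 52.8 ± 5.24 CPM at 10% RPS. Its log2 fold change was -0.03 ± 0.11 (SE), and the 95% interval ran from -0.26 to 0.20. The reductase Cybrd1 (ENSMUSG00000027015, chr2:70948267-70973270) was at 3.11 ± 0.418 CPM in the controls and 2.87 ± 0.301 CPM at 10% RPS. Its log2 fold change was -0.12 ± 0.16, with an interval of -0.46 to 0.22. Adjusted p-values of Slc11a2 and Cybrd1 at 10% RPS were 0.933 and 0.790 (edgeR).

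Tfrc (ENSMUSG00000022797, chr16:32427556-32451612), the transferrin receptor, varied between mice of one diet. The controls had 114, 116, 139, 72.2 and 77.5 CPM, and the lowest pair were RS10_707 and RS10_708, the mice highest in Slc40a1. At 5% RPS the values were 130, 131, 128, 163 and 127 CPM, and at 10% RPS they were 102, 140, 122, 90.5 and 164 CPM. Thus 4 of the 5 mice on 5% RPS were within 5 CPM of each other, whereas the controls and the 10% RPS mice spread widely. The log2 fold change was 0.39 ± 0.19 (SE) at 5% RPS (edgeR adjusted p = 0.542) and 0.26 ± 0.19 at 10% RPS (adjusted p = 0.548).

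The ferritin chains did not pass the test either. Fth1 (ENSMUSG00000024661, chr19:9957911-9962462) was at 1017 ± 138, 1020 ± 176, 1020 ± 67.7 and 975.1 ± 196 CPM from 0 to 10% RPS, a log2 fold change at 10% of -0.06 ± 0.13 (SE; 95% interval -0.33 to 0.20, edgeR adjusted p = 0.869). Ftl1 (ENSMUSG00000050708, chr7:45107367-45109308) had 83.9, 63.6, 82.8, 80.5 and 101.9 CPM in the controls and 67.7, 76.9, 66.6, 66.0 and 70.7 CPM at 10% RPS. So 4 of 5 controls lay above all 10% RPS mice, and control RS10_703 lay below them. The log2 fold change of Ftl1 was -0.19, -0.26 and -0.25 at 2, 5 and 10% RPS, each ± 0.10 (SE). All were against the same 5 controls, so they are not independent. At 10% RPS the unadjusted p was 0.0168 and the adjusted p 0.224 (edgeR), and without control RS10_708 the log2 fold change was -0.16. Neither chain passed after adjustment, and the ratio of Fth1 to Ftl1, on the log2 scale 3.63 ± 0.144 in the controls and 3.79 ± 0.191 at 10% RPS, did not differ beyond the spread (exact permutation test, two-sided, p = 0.167, adjusted p = 0.393 over 9 ratio tests).

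Ireb2 (ENSMUSG00000032293, chr9:54770970-54820011), an iron regulatory protein, had a coefficient of variation of 5.74 to 7.88% within diets. Its level was 54.4, 59.0, 60.9, 63.3 and 57.5 CPM in the controls and 62.1, 60.8, 71.3, 70.7 and 69.5 CPM at 10% RPS. The 3 highest mice on 10% RPS (RS10_729, RS10_731 and RS10_784) lay above every control and were also the 3 highest in Heph. Other mice above every control were RS10_718 and RS10_721 (5% RPS), at 66.4 and 66.7 CPM, and RS10_715 (2% RPS), at 70.7 CPM. In RS10_715 Heph was at 83.1 CPM, within the range of the controls. The log2 fold change was 0.18 ± 0.07 (SE) at 10% RPS, with an unadjusted p of 0.0152 and an adjusted p of 0.214 (edgeR). The slope was 0.02 log2 units per 1% RPS (adjusted p = 0.152). It did not pass the adjusted threshold.

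**Figure D2:**
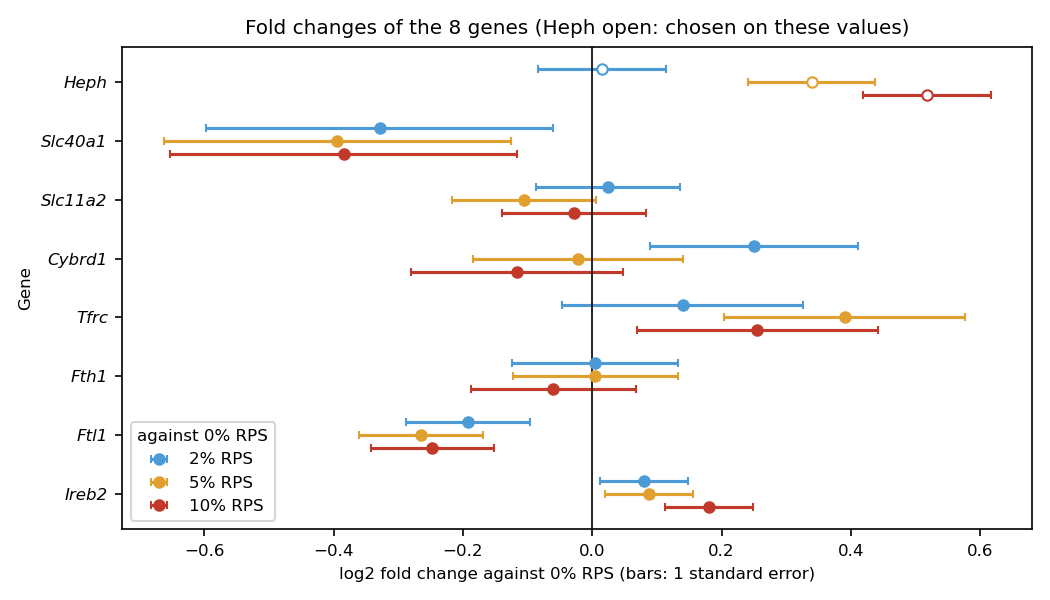
Log2 fold change of each gene against 0% RPS (x axis) at 2, 5 and 10% RPS, with bars of 1 standard error from the edgeR fit. The open points of Heph mark that it was chosen on these values. Heph stands at 0.34 and 0.52 at 5 and 10% RPS, whereas the points of Slc11a2 and Fth1 lie near 0.

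Over all genes tested, 0.0391% were called at 10% RPS when both a fold change of 1.5 or more and an adjusted p no higher than 0.05 were required, and 0% at 5% and at 2% RPS. None of the 7 testable genes was among them. At an unadjusted p under 0.05 the share of all genes was 15.2% at 10% RPS, 9.19% at 5% RPS and 1.41% at 2% RPS. Among the 7 genes, 2 (Ftl1 and Ireb2) reached it at 10% RPS, 2 (Ftl1 and Tfrc) at 5% and 0 at 2% RPS. For the linear trend over RPS percent, 1.15% of all genes rose and 0.950% fell after adjustment (p of 0.05 or less), and 19.1% had an unadjusted p under 0.05. Of the 7 genes 0 passed the trend test after adjustment and 2 (Ftl1 and Ireb2) had an unadjusted p under 0.05. DESeq2 and limma-voom also called 0 of the 7 genes in every comparison.

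The ratios of import to storage and of export to import were compared in the same way. The log2 ratio of Tfrc to Fth1 was -3.33 ± 0.485 in the controls, -3.16 ± 0.469 at 2%, -2.91 ± 0.235 at 5% and -2.99 ± 0.369 at 10% RPS (SD, n = 5). The log2 ratio of Slc40a1 to Slc11a2 was 2.15 ± 0.513 in the controls and 1.92 ± 0.245 at 10% RPS. Of 9 tests the smallest p was 0.0476, for the ratio of Fth1 to Ftl1 at 5% RPS (exact permutation test, two-sided; the smallest p that 5 against 5 mice allow is 0.00794), and the smallest adjusted p was 0.393. Neither the balance of import to storage nor that of export to import was shown to change.

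Another 64 genes of iron, heme and copper handling were listed by role, with earlier results of these data known. Of them, 60 could be tested. At 10% RPS 0 of 60 were called by edgeR, 12 (20%) had an unadjusted p under 0.05 beside 15.2% of all genes, and their median log2 fold change was -0.02, against -0.01 over all genes tested. The trend over RPS percent was called for 4 of 60, of which 1 rose and 3 fell, beside 1.15% of all genes that rose and 0.950% that fell. None of the 4 was called without RS10_784, a mouse with acinar RNA, whose part in them was not tested. Hif1a, an oxygen-sensing transcription factor subunit, rose from 127 ± 20.1 CPM in the controls to 193 ± 29.0 CPM at 10% RPS (SD, n = 5), and the lowest mouse on 10% RPS, at 174 CPM, lay above the highest control, at 144 CPM. Its slope was 0.07 log2 units per 1% RPS (adjusted p = 0.0237). Epas1, which encodes the related subunit HIF-2 alpha, fell from 253 ± 50.7 to 194 ± 24.3 CPM, with overlapping groups and a slope of -0.04 (adjusted p = 0.0477). Epas1 was not called under RLE scaling (adjusted p = 0.0545), thinning to the smallest total (adjusted p = 0.0639), limma-voom (adjusted p = 0.0529) or with the level of the clock gene Dbp as a covariate, chosen after seeing the data (adjusted p = 0.062). Slc48a1, a heme transporter, fell from 51.1 ± 3.58 to 42.2 ± 2.17 CPM, without overlap, with a slope of -0.03 (edgeR adjusted p = 0.0209). A lack of overlap at 10% RPS, as in Hif1a and Slc48a1, was found for 2.28% of all tested genes. Hscb, a co-chaperone of iron-sulfur cluster assembly, fell from 16.2 ± 4.002 to 11.5 ± 0.993 CPM, with overlapping groups and a slope of -0.05 (edgeR adjusted p = 0.0359). The adjusted p-values of the 4 slopes are from edgeR. None of the 4 was called with the treatment label or without the 3 mice whose labels disagree, where the adjusted p of Hif1a was 0.189 and 0.059. When single mice were left out, Hif1a was not called without RS10_784, Slc48a1 without RS10_708, RS10_729 or RS10_784, Hscb without any 1 of 8 mice and Epas1 without any 1 of 15.

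Of 10 tested mitochondrial iron and iron-sulfur genes, 1 (Hscb) passed the trend test, and the median log2 fold change at 10% RPS was 0.01. Of 16 heme genes 1 (Slc48a1) passed. A negative log2 fold change was found for 13 of 16 at 10% RPS, with a median of -0.12. Against the same controls it was found for 11 of 16 at 5% RPS and 13 of 16 at 2% RPS, so these counts are not independent. The shares over all genes were 53.2%, 52% and 50.4% at 10, 5 and 2% RPS. Slc46a1, a folate and heme transporter, was at 68.8 ± 14.3 CPM in the controls and 49.4 ± 14.9 CPM at 10% RPS (adjusted p = 0.211 at 10% RPS, edgeR). Of 12 regulators 2 (Hif1a and Epas1) passed, in opposite directions. Of 10 uptake genes, 3 transferrin and lactoferrin pathway genes, 3 storage genes and the other tested ferroxidase, 0 passed. Among the uptake genes, the metal importer Slc39a8 had the highest log2 fold change at 10% RPS of those at 1 CPM or more, 0.30 ± 0.16 (SE; adjusted p = 0.369).

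Heph needs copper, and 5 copper genes were tested, of which 0 passed after adjustment. Atp7b, a copper-exporting ATPase, had the lowest log2 fold change at 10% RPS of the list, -0.78 ± 0.23 (SE; edgeR adjusted p = 0.124), with 6.14 ± 1.88 CPM in the controls and 3.59 ± 0.789 CPM at 10% RPS. Atp7a, the copper ATPase that loads secreted copper enzymes, was at 4.87 ± 1.04 and 6.99 ± 0.925 CPM, a log2 fold change of 0.52 ± 0.20 (adjusted p = 0.214). Its lowest mouse on 10% RPS, at 6.17 CPM, was just above its highest control, at 6.14 CPM. Of all tested genes, 2.28% had no overlap at 10% RPS. The copper importer Slc31a1 had a log2 fold change of 0.30 ± 0.09 (adjusted p = 0.120). These 3 of the 5 copper genes had an unadjusted p under 0.05, beside 15.2% of all genes, and none of them passed after adjustment. DESeq2 called Atp7b and Hif1a at 10% RPS, at adjusted p = 0.0435 and 0.0129.

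**Figure D3:**
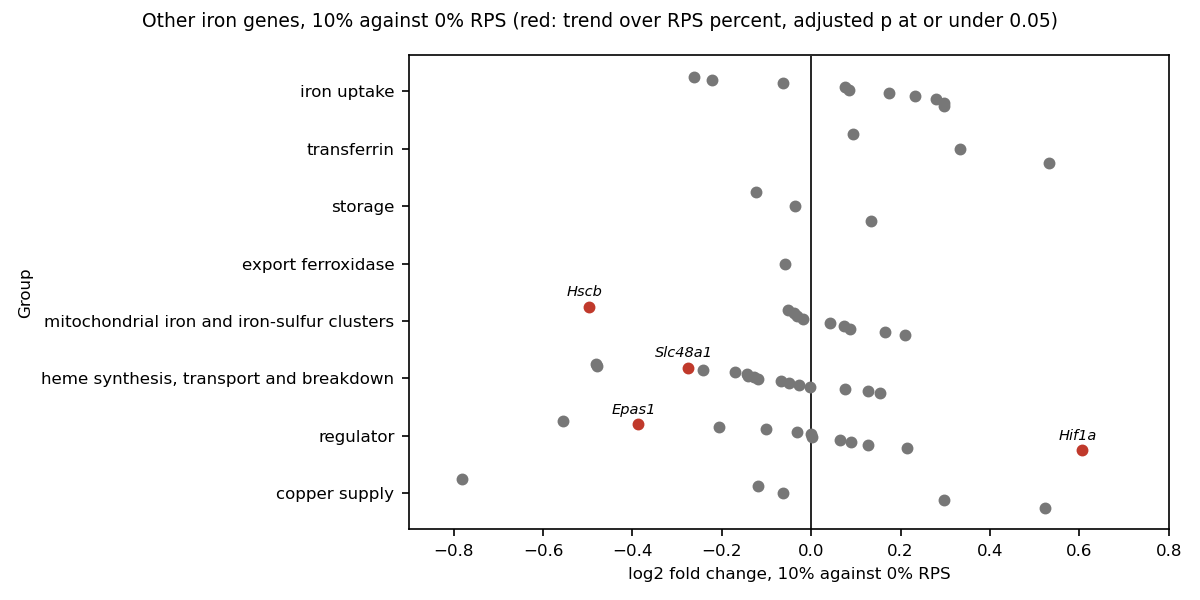
Log2 fold change at 10% against 0% RPS (x axis) of the other 60 tested genes, in rows by role, 1 point per gene. Red points are the 4 genes whose trend over RPS percent was called, with Hif1a to the right of 0 and Hscb, Slc48a1 and Epas1 to the left.

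Mice of one diet were then compared with each other. Each gene's log2 CPM was centred on its diet mean, and the 28 pairs of the 8 genes were correlated over the 20 mice, with p from permutation within diets and Benjamini-Hochberg adjustment over the pairs. Genes of one library share its depth and tissue make-up, and how often other gene pairs reach such r was not computed. A mouse high in Heph was also high in Ireb2 (r = 0.71, rho = 0.79, permutation adjusted p = 0.0155 and 0.0115) and low in Fth1 (r = -0.58, rho = -0.60, adjusted p = 0.0155 and 0.0233). Fth1 and Ireb2 ran opposite to each other (r = -0.71, rho = -0.67, adjusted p = 0.0175 and 0.0233). Without the 2 mice farthest from the median of the second-named gene (or of the score), r was 0.71 for Heph with Ireb2, -0.53 for Heph with Fth1 and -0.54 for Fth1 with Ireb2. These 3 relations kept an adjusted p of r under the threshold when any 1 mouse was left out, with r of 0.65 to 0.82, -0.64 to -0.46 and -0.79 to -0.60. Mouse RS10_727 (10% RPS) had the highest Fth1 of all mice, at 1321 CPM, and the lowest Heph and Ireb2 of its diet.

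Slc40a1 and Tfrc, the exporter and the transferrin receptor, also ran opposite to each other within diets (r = -0.68, rho = -0.65, permutation adjusted p = 0.0274 and 0.0248, and r = -0.64 without the 2 farthest mice). This relation rests in part on the controls RS10_707 and RS10_708. Without both, an alternative chosen after seeing the data, r was -0.39 (adjusted p = 0.354), and the adjusted p of r was also above 0.05 without any 1 of 7 single mice, with r of -0.76 to -0.58 over all 20 omissions. Slc40a1 and Slc11a2 ran together (r = 0.69, rho = 0.65, adjusted p = 0.0416 and 0.072, r = 0.50 without the 2 farthest), and without the same pair of mice r was 0.34 (adjusted p = 0.568). Cybrd1 and Tfrc (r = -0.63, rho = -0.57, adjusted p = 0.0274 and 0.0617) and Fth1 and Ftl1 (r = 0.57, rho = 0.55, adjusted p = 0.0416 and 0.072) passed for r but not for rho. Without the 2 farthest mice r was -0.60 and 0.52. The adjusted p of r was above 0.05 without any 1 of 11 single mice for Slc40a1 and Slc11a2, 5 for Cybrd1 and Tfrc and 14 for Fth1 and Ftl1. Under RLE scaling it was 0.0588 for Slc40a1 and Slc11a2 and 0.0616 for Fth1 and Ftl1 (permutation). The other 21 pairs did not pass, with Heph and Slc40a1 among them (r = -0.28, adjusted p = 0.475).

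**Figure D4:**
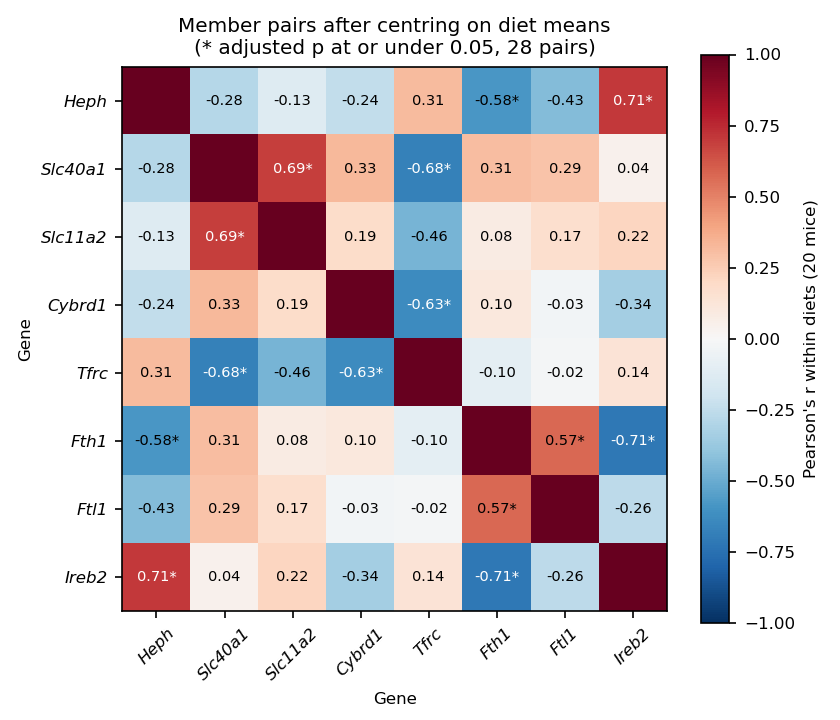
Pearson's r of each pair of the 8 genes over 20 mice after the diet mean was removed from each gene (colour scale from -1 to 1). Stars mark the 7 of 28 pairs with an adjusted permutation p of at most 0.05, of which Heph with Ireb2, at 0.71, and Fth1 with Ireb2, at -0.71, are among the strongest.

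Slc40a1 is also known to be expressed in macrophages that recycle iron, and the mice differed in tissue make-up, so the genes were set beside marker scores (mean log2 CPM of a marker list). The 8 surface colonocyte markers summed to a median of 12179 CPM at 0%, 12857 at 2%, 14156 at 5% and 17170 at 10% RPS, with ranges of 11392 to 14509 in the controls and 14407 to 17425 at 10% RPS. All 8 were detected, and Lypd8 alone made up most of the sum, with means of 8994 CPM in the controls and 10867 CPM at 10% RPS. The means of all 8 were higher at 10% RPS than in the controls, least so for Guca2b (5.70 and 6.20 CPM). Guca2a and Guca2b had their highest means at 5% RPS. The score was 7.67 ± 0.239 in the controls and 8.38 ± 0.195 at 10% RPS (SD, n = 5), the diets between which Heph differed. Within diets Heph followed this score (r = 0.75, permutation adjusted p = 0.0326 over 48 tests, rho = 0.65, adjusted p = 0.0805), and r was 0.55 without the 2 farthest mice. The adjusted p of r was above 0.05 without any 1 of 12 single mice, with r of 0.64 to 0.82 over all 20 omissions. It also followed the proliferation score (r = 0.68, adjusted p = 0.00864, rho = 0.67, adjusted p = 0.0703, r = 0.64 without the 2 farthest), which was 4.85 ± 0.561 at 0% and 4.74 ± 0.670 at 10% RPS. That relation did not pass without RS10_727 (r = 0.60) or when centred on the treatment label (r = 0.59, adjusted p = 0.0768). The part of the surface cells in the dose values of Heph was not tested.

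Ireb2 was lower in mice with more smooth muscle signal (r = -0.67, rho = -0.73, permutation adjusted p = 0.0326 and 0.0206, r = -0.57 without the 2 farthest), and Fth1 had r = 0.55 with that score (adjusted p = 0.073). The first did not pass without any 1 of 10 single mice (r of -0.78 to -0.58 over all 20 omissions). Heph had r = -0.56 and rho = -0.54 with the smooth muscle score (permutation adjusted p = 0.126 and 0.0805, r = -0.39 without the 2 farthest). The part of the muscle layer in the pairs of Heph, Ireb2 and Fth1 was not tested. The smooth muscle score was 9.62 ± 0.242 at 0% and 9.61 ± 0.127 at 10% RPS. The 12 macrophage markers, all detected, summed to a median of 440 CPM in the controls and 393 CPM at 10% RPS, with ranges of 332 to 614 and 305 to 410 CPM. The 6 erythroid markers, all detected, summed to 349 CPM in mouse RS10_715 (2% RPS) and to 12.8 to 84.0 CPM in the others, with medians of 28.4 CPM in the controls and 51.9 CPM at 10% RPS. Tfrc had r = 0.49 and rho = 0.55 with the erythroid score (permutation adjusted p = 0.126 and 0.0805, r = 0.45 without the 2 farthest). Of the 48 pairs of a gene and a score, 3 passed, and none of them held Slc40a1. With the macrophage score Slc40a1 had r = 0.16 and rho = 0.14 (permutation adjusted p = 0.758 and 0.805, r = -0.25 without the 2 farthest). Its largest r were negative and uncalled. They were -0.55 with the surface colonocyte score (rho = -0.58, adjusted p = 0.126 and 0.0888) and -0.54 with the epithelial score (rho = -0.65, adjusted p = 0.126 and 0.0805).

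**Figure D5:**
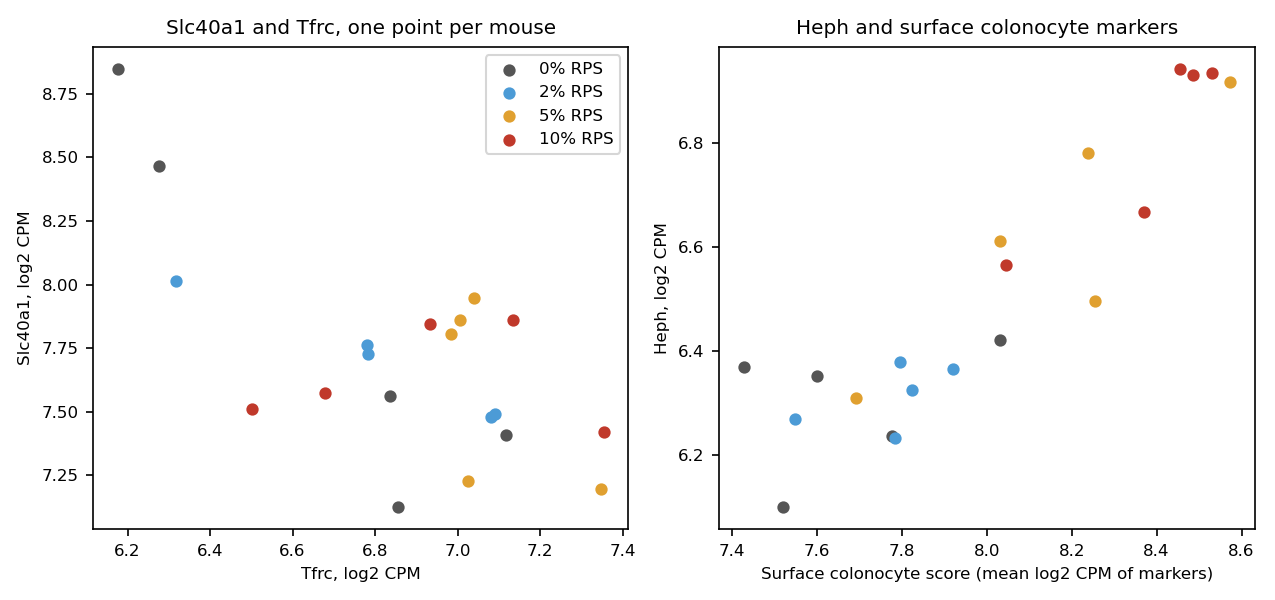
One point per mouse, coloured by RPS level. The left panel plots Slc40a1 against Tfrc (both log2 CPM), where 2 controls stand at the upper left with Tfrc at 6.18 and 6.28. The right panel plots Heph (log2 CPM) against the surface colonocyte score (mean log2 CPM of 8 markers), where both are high in most 10% RPS mice.

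Of 15232 genes at 1 CPM or more, those most like Heph across the 20 mice after centring on diet were 1810065E05Rik (r = 0.87), Pls1 (r = 0.86), Cdh17 (r = 0.86), Dpep1 (r = 0.86) and Atp11b (r = 0.86). Cdh17 is also one of the epithelial markers. Those most like Slc40a1 were Abi3 (r = 0.92), Sun2 (r = 0.90), Tmem35b (r = 0.89), Pigv (r = 0.88) and Cyp4f17 (r = 0.87). The lists share no gene. They are the highest values of a search over all these genes and carry no test.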

How the data were processed

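Polyadenylated RNA of 20 distal colon pieces was sequenced, 1 library per mouse and 5 mice per diet. The authors removed low-quality bases, mapped single-end reads to GRCm39 in CLC Genomics Workbench 20.01 and deposited raw read counts per gene. How reads with more than 1 match were treated, and the annotation, are not given in the sources used here, which leaves ferritin counts uncertain. Total counts were 18429493 to 34974230. Nothing says whether cages or litters were shared. The p-values treat mice as independent and could be too small if mice of one diet shared a cage or litter.

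Identifiers were matched to GENCODE vM39 (26338 of 26619), with 1-based positions. Counts were filtered (filterByExpr, minimum count 10), scaled by TMM and tested with the quasi-likelihood test of edgeR 4.0.16 in R 4.3.3, in one fit over 4 diets and as a slope per 1% RPS, with Benjamini-Hochberg adjustment over 17893 genes. The script was tested on simulated data. CPM per kb uses the union of exons. Log2 CPM for ratios and correlations used a prior count of 2. Ratios were compared by exact permutation, and correlations by permutation within diets (numpy 2.4.6). DESeq2 1.42.0, limma-voom (limma 3.58.1), another scaling (RLE), no filter, thinning to the smallest total, the treatment label, omission of the 3 mice with disagreeing labels, a prior count of 0.5, only the 2 diets compared, and omission of each mouse were alternatives. Mouse numbers are unique, so nothing pairs mice across diets.

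Of the other iron genes, those named were called by edgeR or were among the 4 highest or 4 lowest log2 fold changes at 10% RPS at 1 CPM or more. Slc31a1 was named after its value was seen. The 5 genes with the highest r to Heph and to Slc40a1 were also named. Of 72 iron genes listed, Lrp2 and Ftmt were not matched and Hephl1 and Hjv were not tested. Members and lists were chosen with earlier results of these data known.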

Additional observations from a re-analysis of the deposited data

Results flagged for a closer look

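Among 44 groups of 5 mice, for the 8 genes and 3 ratios at 4 diets, 2 held a mouse that stood apart from the others, where chance alone gives about 1 in 20. Tfrc in mouse RS10_721 (5% RPS) was at 163 CPM, and the next highest mouse of that diet was at 131 CPM. RS10_721 is the mouse with pancreas acinar markers, and it also had the lowest smooth muscle score, 8.96. Fth1 in mouse RS10_727 (10% RPS) was at 1321 CPM, the next highest at 926 CPM. RS10_727 had the smallest total count, 18429493, and the lowest proliferation score of its diet, 3.62. Without it the log2 fold change of Fth1 at 10% RPS was -0.18 (edgeR adjusted p = 0.389), against -0.06 with it.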

How the results depend on the processing

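None of the 7 testable members was called under any alternative. Heph was chosen on its dose values and has no test. Its values at 5 and 10% RPS and its slope kept their direction under all alternatives, which is a description only. The log2 fold changes of Heph at 10% RPS were 0.47 to 0.58 (lowest without RS10_708 or with the treatment label, highest without RS10_727). The log2 fold change of Heph at 2% RPS was -0.0331 to 0.0473 when single mice were left out. Over all genes, the 7 called at 10% RPS became 210 with DESeq2, 13 with RLE scaling and 0 with the treatment label or without the 3 mice. Without single mice they were 5 to 188, with 188 without RS10_727, 109 without RS10_703, 59 without RS10_704, 36 without RS10_721 and 5 to 11 without the others. The 375 genes with a called trend were 24 without RS10_784, 109 without RS10_708, 127 without RS10_729, 139 without RS10_731, 587 without RS10_704, 758 without RS10_703, 1148 without RS10_727 and 200 to 487 without the others. Of the 60 other genes, 0 were called at 10% RPS, 2 with DESeq2, and 0 to 1 without single mice (1 without RS10_727, Slc46a1). The 4 called trends became 8 with DESeq2, 2 with limma-voom, 0 with the treatment label, 0 without the 3 mice with disagreeing labels and 2 with the level of the clock gene Dbp as a covariate, chosen after seeing the data. Without single mice they were 0 to 7, namely 0 without RS10_784, 1 without RS10_708 or RS10_729, 2 without RS10_701, RS10_707, RS10_709, RS10_712 or RS10_731, and 7 without RS10_727.

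Uncalled values near 0 changed sign. Slc11a2 at 2% RPS was -0.0365 with the treatment label and -0.00207 after thinning. Fth1 was 0.0210 at 10%, -0.0134 at 5%, -0.0596 at 2% and 0.00427 as a slope with the treatment label, 0.00308 at 10% and -0.00142 at 5% with Dbp, -0.00435 at 2% with limma-voom and -0.0575 at 2% without the 3 mice. When single mice were left out, Slc11a2 ran from -0.0861 to 0.0938 at 10%, -0.199 to 0.0103 at 5%, -0.0358 to 0.141 at 2% and -0.00941 to 0.00317 as a slope. Cybrd1 at 5% ran from -0.0831 to 0.0341, Fth1 from -0.0403 to 0.0585 at 5% and from -0.0588 to 0.0971 at 2%, and the log2 ratio of Tfrc to Fth1 at 2% from -0.0117 to 0.311.

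The 7 called member pairs became 3 without RS10_707 and RS10_708 (chosen after seeing the data) and 3 to 7 without single mice, with 3 without RS10_703, RS10_704, RS10_708 or RS10_712 and 4 without RS10_701, RS10_707 or RS10_721. The 3 called pairs of a gene and a score became 5 without RS10_707 and RS10_708, 5 with Dbp and 0 to 5 without single mice, with 0 without RS10_727, 5 without RS10_708 and 1 without RS10_715, RS10_716, RS10_719, RS10_721, RS10_729, RS10_731, RS10_748 or RS10_784. The cause of these changes was not tested. Ratios gave 0 calls under every alternative. No paired analysis was possible because each mouse number belongs to a single animal. Cybrd1 rests on 57 to 153 reads per mouse, fewer than the other 7 genes.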

Other observations

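Tissue was not labelled with a time of day, and the clock gene Dbp was therefore set beside the 8 genes, a choice made after seeing the data. Within diets Slc40a1 had r = 0.56 and rho = 0.62 with Dbp over 20 mice (permutation adjusted p = 0.0783 and 0.0553 over 8 genes, r = 0.50 without the 2 mice farthest from the median of Dbp). Tfrc had r = -0.48 and rho = -0.51 (adjusted p = 0.294 and 0.183). Heph had r = -0.02 (adjusted p = 0.935). None passed. With Dbp as a covariate, the log2 fold change of Heph at 10% RPS was 0.51, Heph with Ireb2 had r = 0.71 and Slc40a1 with Tfrc had r = -0.56 (permutation adjusted p = 0.17).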
